A study of Mus musculus with 30 samples.

Results

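Interferon-stimulated genes are the genes that cells switch on when they sense an interferon. They were followed here as a module of 43 genes, taken by gene symbol from the platform annotation. Each was measured by its probe set of highest mean over the 30 arrays. The list was split by the interferon each gene is best known for: 28 are type I members, the antiviral effectors, sensors and transcription factors induced by interferon-alpha and interferon-beta, and 15 are interferon-gamma-type members, the guanylate-binding proteins, immunity-related GTPases, antigen-processing genes and chemokines. Many of these genes answer to both kinds of interferon, so the split is one of emphasis. Of the 43, 41 have a probe set that carries their symbol alone, 26 of type I and all 15 of the gamma type, and all 41 passed the filter on low levels. Isg15 and Ifi44 had no such probe set and were not analysed here. The 41 stand among 14548 genes tested and 18194 genes with a probe set of their own.

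The tissue was the small intestine of mice 2 months old, harvested 5 days after gene deletion. The 3 genotypes were the Rb/Myc double knockout (DKO), in which Rb1 and Myc were deleted together, the Rb knockout (Rb KO), in which Rb1 was deleted, and control. Villi, the differentiated projections of the gut lining, and crypts, the pits that hold its dividing cells, were profiled apart, with 5 arrays in each of the 6 groups. Deletion used Ah-cre, an inducible Cre recombinase active in the gut epithelium, so immune and connective tissue cells of the samples are not its target. Whether control mice carried the Cre or received the inducer is not given in the sources used here. All values are log2, a difference of 1 being a doubling, and differences are given with their standard error. The labels do not say that the arrays of a group came from separate animals, so p-values measure the spread between these arrays, which may in part be technical, and precision is set by the 5 arrays a group. Adjusted p-values come from limma, are two-sided and adjusted over all 14548 genes, with a threshold of 0.05.

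Type I interferons signal through the receptor of Ifnar1 and Ifnar2 and the kinases Jak1 and Tyk2 to a complex that holds Stat2 and Irf9 and binds the interferon-stimulated response element (ISRE) in promoters. Interferon-gamma signals through Ifngr1 and Ifngr2 and acts through the gamma-activated site (GAS). In the gut, epithelial cells respond to these signals and to interferon-lambda, and lymphocytes that lie between the epithelial cells are a known source of interferon-gamma.

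Promoter windows of 300 bases, 250 before to 50 after the start site, were read from RefSeq (GRCm38.p6) for 33 of the 43 members. Usp18, Oas2, Mx1, Mx2, Dhx58, Parp9, Parp14, Zbp1, Gbp6 and Iigp1 had no entry. An ISRE core was taken as GAAA and GAAA with any 2 bases between, a GAS as TTCNNNGAA, and an E2F core, the element through which Rb1 acts, as TTTCCCGC or TTTGGCGC, on both strands. The ISRE core was found in 10 of 20 type I members (50.0%) and 7 of 13 gamma-type members (53.8%), against 4.0% of 27025 genes. The GAS was found in 4 type I members (20.0%) and 5 gamma-type members (38.5%), against 9.6% of all genes. The E2F core was found in 1 type I member (5.0%) and 2 gamma-type members (15.4%), against 1.8%. In 1 of the 37 windows of members, matches of different motifs overlapped. A match is a description of these letters and not a measured binding site.

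The windows below belong to the members with the smallest p when Rb KO villi were compared with control villi, 3 of each class with an entry, and to Ifit3 and Oas1a, the next with an entry among those of smallest p in DKO against Rb KO villi, added after their values were seen. Capitals mark the motif matches. Ddx58 (chr4:40239776-40240075, minus strand) and Stat2 (chr10:128270248-128270547, plus strand) hold an ISRE core. Ifit2 (chr19:34550444-34550743, plus strand, 1 of its 2 windows) holds a GAS and an E2F core, Ifit3 (chr19:34583279-34583578, plus strand) holds 2 ISRE cores, and Oas1a (chr5:120907476-120907775, minus strand) holds 2 overlapping ISRE cores and a GAS. Irgm2 (chr11:58214727-58215026, plus strand) holds a GAS and an ISRE core, Tap1 (chr17:34187306-34187605, plus strand) an E2F core, and Ubd (chr17:37193642-37193941, plus strand) none of the 3 motifs.
Ddx58: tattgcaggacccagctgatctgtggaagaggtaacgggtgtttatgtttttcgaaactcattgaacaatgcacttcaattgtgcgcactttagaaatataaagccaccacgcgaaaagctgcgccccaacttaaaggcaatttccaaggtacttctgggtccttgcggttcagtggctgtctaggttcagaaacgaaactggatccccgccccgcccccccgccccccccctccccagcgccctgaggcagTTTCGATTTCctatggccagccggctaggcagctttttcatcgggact
Stat2: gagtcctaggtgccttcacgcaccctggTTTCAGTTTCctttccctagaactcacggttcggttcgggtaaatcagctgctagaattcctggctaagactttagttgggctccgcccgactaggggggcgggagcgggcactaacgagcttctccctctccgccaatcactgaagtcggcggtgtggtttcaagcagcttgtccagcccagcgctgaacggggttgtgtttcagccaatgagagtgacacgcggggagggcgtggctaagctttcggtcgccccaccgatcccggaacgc
Ifit2: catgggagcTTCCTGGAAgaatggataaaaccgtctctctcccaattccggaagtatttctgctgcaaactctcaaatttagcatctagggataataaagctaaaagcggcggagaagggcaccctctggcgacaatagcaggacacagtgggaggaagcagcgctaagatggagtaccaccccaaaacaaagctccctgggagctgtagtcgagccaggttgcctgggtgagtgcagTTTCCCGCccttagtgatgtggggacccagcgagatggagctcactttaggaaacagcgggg
Ifit3: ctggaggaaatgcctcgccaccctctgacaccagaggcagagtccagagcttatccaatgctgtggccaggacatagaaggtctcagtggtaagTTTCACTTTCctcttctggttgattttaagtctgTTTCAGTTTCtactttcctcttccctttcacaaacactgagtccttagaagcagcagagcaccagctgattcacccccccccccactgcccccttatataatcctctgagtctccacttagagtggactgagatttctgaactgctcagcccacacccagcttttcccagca
Oas1a: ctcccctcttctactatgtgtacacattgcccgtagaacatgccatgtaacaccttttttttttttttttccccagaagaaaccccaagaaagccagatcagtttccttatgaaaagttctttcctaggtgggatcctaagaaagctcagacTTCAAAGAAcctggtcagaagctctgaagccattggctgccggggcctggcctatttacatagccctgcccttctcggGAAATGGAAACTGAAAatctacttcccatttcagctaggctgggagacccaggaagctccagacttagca
Irgm2: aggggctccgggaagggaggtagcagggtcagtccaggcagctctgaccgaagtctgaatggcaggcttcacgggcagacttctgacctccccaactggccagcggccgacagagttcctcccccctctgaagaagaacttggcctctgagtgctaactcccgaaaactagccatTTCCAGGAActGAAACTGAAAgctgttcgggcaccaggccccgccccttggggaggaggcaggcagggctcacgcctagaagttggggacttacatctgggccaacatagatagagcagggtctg
Tap1: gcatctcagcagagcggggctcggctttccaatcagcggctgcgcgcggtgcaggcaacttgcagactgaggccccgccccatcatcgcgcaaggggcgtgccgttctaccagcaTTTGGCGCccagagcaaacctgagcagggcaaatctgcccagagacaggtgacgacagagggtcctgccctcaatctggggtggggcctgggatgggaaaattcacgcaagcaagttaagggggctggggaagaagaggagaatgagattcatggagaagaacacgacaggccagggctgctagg
Ubd: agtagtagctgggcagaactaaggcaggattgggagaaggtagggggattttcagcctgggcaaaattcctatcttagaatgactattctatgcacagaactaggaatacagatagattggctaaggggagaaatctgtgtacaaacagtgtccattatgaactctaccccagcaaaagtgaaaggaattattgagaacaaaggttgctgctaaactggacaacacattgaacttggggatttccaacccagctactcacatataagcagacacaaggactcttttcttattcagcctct

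The labels were checked on the deleted genes and the tissues. Rb1 read 8.25 to 8.66 in DKO villi and 8.19 to 8.34 in Rb KO villi, against 9.14 to 10.21 in control villi. In crypts Rb1 read 8.05 to 8.60 in DKO and 8.14 to 8.30 in Rb KO, against 9.32 to 10.49 in control. Myc read 8.67 to 9.01 in DKO crypts, against 9.98 to 11.04 in Rb KO crypts and 10.33 to 10.86 in control crypts. In villi Myc did not set DKO apart from control, at 6.49 to 6.94 in DKO, 6.98 to 7.48 in Rb KO and 6.38 to 7.89 in control, with a DKO minus control difference of -0.30 ± 0.21 (adjusted p = 0.354) and a DKO minus Rb KO difference of -0.52 ± 0.21 (adjusted p = 0.147). It is not known whether these probes read the deleted exons. The mean of 9 villus enterocyte markers was 14.21 to 14.42 in villi and 12.28 to 13.31 in crypts, and that of 9 crypt markers was 7.99 to 10.30 in villi and 12.10 to 12.78 in crypts. The tissues were processed apart before deposit, so levels are compared within a tissue. The array of control animal 1 is known from earlier results to carry Rb KO-like values at some genes. It lay with the Rb KO arrays, outside the range of the other control arrays, in 4 members in villi and 4 in crypts, and in 0 members in both tissues.

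In Rb KO against control villi, gamma-type members fell and type I members moved both ways. Among gamma-type members 6 of 15 fell and 0 rose (0 rose also at an unadjusted p under 0.05), where 15.8% of all genes fell and 14.7% rose. Among type I members 5 of 26 fell (19.2%) and 2 rose (7.69%), against those same shares of all genes, so the type I counts stood near or under the background. At an unadjusted p under 0.05, 2719 of 14548 genes rose and 3063 fell. The median difference was -0.23 for the gamma type and -0.02 for type I, against -0.02 for all genes. In all, 14 of 15 gamma-type members lay below 0, against 14 of 26 type I members.

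Ubd encodes a ubiquitin-like modifier that marks proteins for the proteasome. It read 6.85, 5.74, 6.86, 5.48 and 5.63 in Rb KO villi, against 9.81, 8.70, 8.21, 7.13 and 8.91 in control villi. All Rb KO arrays lay below all control arrays. The difference was -2.44 ± 0.48 (adjusted p = 0.00113), the widest of any member in any of the 6 genotype comparisons. Tap1, the peptide pump that loads class I molecules, read 9.32, 9.43, 9.68, 9.17 and 9.11 in Rb KO villi, against 9.85, 10.14, 9.73, 9.69 and 10.37 in control villi. Here too the groups were apart, Rb KO animal 3 lying just under control animal 4, with a difference of -0.62 ± 0.13 (adjusted p = 0.00242).

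Gbp6, a guanylate-binding protein that attacks the vacuoles of intracellular pathogens, read 6.53, 6.28, 6.92, 6.03 and 6.37 in Rb KO villi, against 7.46, 7.44, 7.09, 6.90 and 7.70 in control villi. Only Rb KO animal 3 reached the control range, at its lower edge. The difference was -0.89 ± 0.16 (adjusted p = 5.3e-04), and its other probe set gave -1.13. Irgm2, an immunity-related GTPase of the same defence, read 9.26, 8.48, 9.32, 8.02 and 8.34 in Rb KO villi, against 9.61, 10.05, 9.50, 8.95 and 9.88 in control villi. Rb KO animals 1 and 3 lay inside the control range and the other 3 under it. Irgm2 differed by -0.92 ± 0.24 (adjusted p = 0.00817) and Igtp, a GTPase of the same family, by -0.84 ± 0.24 (adjusted p = 0.0136). The T cell chemoattractant Cxcl9 differed by -0.41 ± 0.14 (adjusted p = 0.0419), but its other probe set gave -0.03, and the mean of both did not pass.

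The type I members that fell in Rb KO villi were Ddx58, Stat2, Ifit1, Parp9 and Dtx3l. Ddx58, which encodes the RNA sensor RIG-I, read 9.38, 9.40, 9.66, 9.08 and 9.56 in Rb KO villi, against 9.68, 9.99, 9.76, 9.76 and 9.92 in control villi. No Rb KO array reached the control range, and the difference was -0.41 ± 0.09 (adjusted p = 0.00313). Stat2, the signalling partner of the type I response, read 7.57, 8.09, 8.23, 6.74 and 7.73 in Rb KO villi, against 8.14, 8.46, 8.39, 8.26 and 8.30 in control villi. Rb KO animal 3 lay inside the control range and animal 4 far under it. The difference was -0.64 ± 0.20 (adjusted p = 0.0226), with -0.40 at its other probe set. Ifit1, which binds viral RNA caps, differed by -0.57 ± 0.20 (adjusted p = 0.0383). The ADP-ribosyltransferase Parp9 differed by -0.33 ± 0.11 (adjusted p = 0.0242) and its partner, the ubiquitin ligase Dtx3l, by -0.38 ± 0.14 (adjusted p = 0.0415).

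The pair that rose in Rb KO villi was Ifit2 and Ifih1. Ifit2, a further RNA-binding effector, read 5.64, 5.19, 5.57, 5.55 and 5.72 in Rb KO villi, against 5.22, 4.91, 4.97, 4.83 and 5.21 in control villi. Only Rb KO animal 2 reached into the control range. The control values all lay under 5.33, the level of the filter, which Ifit2 passed by its mean over all 30 arrays, 5.83. The difference was 0.50 ± 0.12 (adjusted p = 0.00397). Ifih1, which encodes the RNA sensor MDA5, differed by 0.34 ± 0.12 (adjusted p = 0.0378), with no overlap of the groups, a call kept in 10 of 20 alternatives and lost in 7 of the 10 that left out a single array. Thus Ifit1 and Ifit2, and the sensors Ddx58 and Ifih1, moved in opposite directions.

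**Figure D1:**
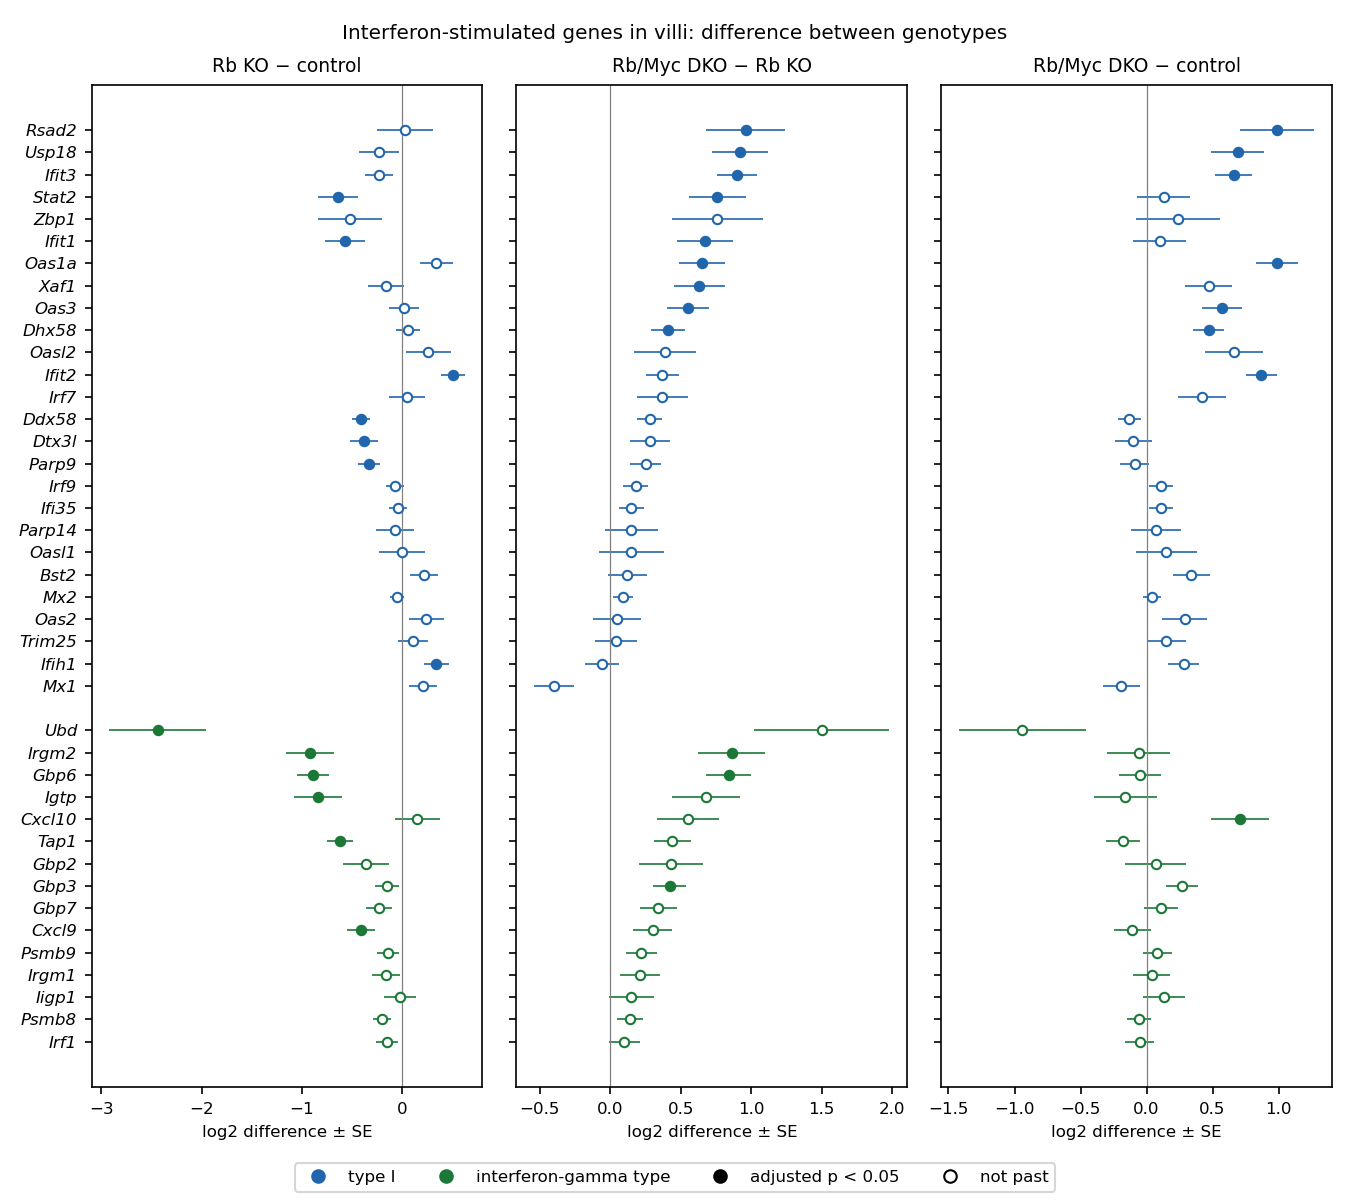
Log2 difference ± SE of the 41 members in villi, one row a gene, for Rb KO minus control, DKO minus Rb KO and DKO minus control (n = 5 arrays a group). Blue points are type I and green points interferon-gamma-type members, filled where the adjusted p is under 0.05. The gamma-type members lie left of 0 in the first panel, right of it in the middle panel and on both sides in the right one, while most type I members lie right of 0 in the middle and right panels.

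Members of both classes rose in DKO villi relative to Rb KO villi. Of 26 type I members 9 rose in DKO villi against Rb KO villi and 0 fell, and of 15 gamma-type members 3 rose and 0 fell, where 5.90% of all genes rose and 1.92% fell. The 9 are 34.6% of the type I members, above that background. At an unadjusted p under 0.05 1 type I member and 0 gamma-type members were lower, against 1463 of 14548 genes. The median difference was 0.33 for type I and 0.42 for the gamma type, against -0.01 for all genes. In all, 24 of 26 type I members and 15 of 15 gamma-type members lay above 0. Both comparisons of Rb KO villi share the Rb KO arrays, so an array that is low there moves both.

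Ifit3, which works with Ifit1 on viral RNA, read 8.55, 8.22, 8.52, 7.97 and 7.80 in DKO villi, against 7.32, 7.59, 7.50, 7.02 and 7.15 in Rb KO villi and 7.38, 7.59, 7.57, 7.58 and 7.61 in control villi. Every DKO array lay above every array of the other genotypes. DKO exceeded Rb KO by 0.90 ± 0.14 (adjusted p = 0.00228) and control by 0.66 ± 0.14 (adjusted p = 0.00383). Oas1a, a synthetase whose product activates the RNA-cutting enzyme RNase L, read 11.31, 11.00, 11.16, 10.78 and 11.21 in DKO villi, against 10.57, 10.63, 10.90, 9.92 and 10.20 in Rb KO villi and 9.95, 10.37, 10.28, 10.10 and 9.80 in control villi. All DKO arrays were above all control arrays, and Rb KO animal 3 alone reached the DKO range. The difference was 0.65 ± 0.16 from Rb KO (adjusted p = 0.0261) and 0.99 ± 0.16 from control (adjusted p = 5.3e-04).

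Further type I members rose in DKO against Rb KO villi. Usp18, the protease that removes Isg15 and damps the receptor, read 9.06, 9.20, 9.23, 8.71 and 8.87 in DKO villi, against 8.23, 8.24, 8.75, 7.50 and 7.74 in Rb KO villi, and differed by 0.92 ± 0.20 (adjusted p = 0.0150). Rb KO animal 3 reached just above the lowest DKO array, and the other Rb KO arrays lay under the DKO range. The antiviral enzyme Rsad2 differed by 0.96 ± 0.28 (adjusted p = 0.0469), Stat2 by 0.76 ± 0.20 (adjusted p = 0.0304) and Oas3 by 0.55 ± 0.15 (adjusted p = 0.0361). Ifit1 differed by 0.67 ± 0.20 (adjusted p = 0.0491) and Dhx58, a regulator of the RNA sensors, by 0.41 ± 0.12 (adjusted p = 0.0454), though the 2 other probe sets of Dhx58 gave 0.06 and 0.62. The death-linked factor Xaf1 differed by 0.63 ± 0.18 (adjusted p = 0.0391), while its second, low probe set gave -0.05. Mx1, an antiviral GTPase, had the lowest difference of the class, -0.40 ± 0.14 (adjusted p = 0.104).

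Of the gamma type, Gbp6 read 7.24, 7.14, 7.40, 7.14 and 7.41 in DKO villi, all above the Rb KO arrays and inside the range of control. It differed from Rb KO by 0.84 ± 0.16 (adjusted p = 0.00650). Irgm2 read 9.74, 9.59, 9.52, 9.33 and 9.52 in DKO villi and differed from Rb KO by 0.86 ± 0.24 (adjusted p = 0.0397), the lowest DKO array lying just above the highest Rb KO array. Gbp3 differed by 0.42 ± 0.12 (adjusted p = 0.0450). Ubd read 6.14, 7.61, 7.74, 8.42 and 8.14 in DKO villi, a difference of 1.50 ± 0.48 from Rb KO that did not pass (adjusted p = 0.0667), with DKO animal 1 inside the Rb KO range. Tap1 read 9.99, 9.61, 9.85, 9.70 and 9.76 in DKO villi, a difference of 0.44 ± 0.13 (adjusted p = 0.0568).

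**Figure D2:**
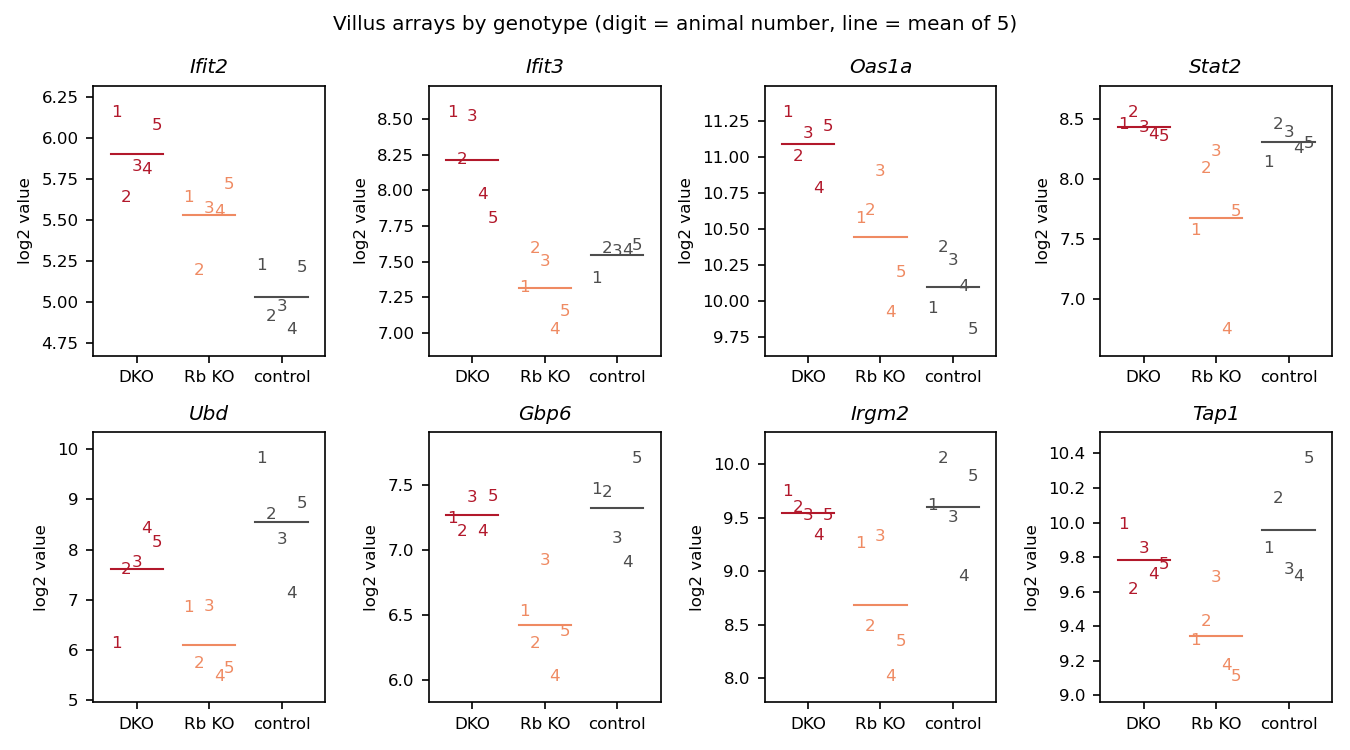
Log2 values of 4 type I members (top) and 4 gamma-type members (bottom) in each villus array, DKO left, Rb KO in the middle and control right; a digit is the animal number and a line the mean of 5 arrays. Ifit3 stands highest in all DKO arrays, Ubd is lowest in Rb KO, and Rb KO animal 3 is the highest or next to highest of its genotype in each panel but that of Ifit2, while animal 4 is the lowest or next to lowest in each.

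Between DKO and control villi, the type I members that changed were higher in DKO, and the gamma type was near control. Of 26 type I members 7 rose and 0 fell, and of 15 gamma-type members 1 rose and 0 fell, where 11.3% of all genes rose and 5.78% fell. These are 26.9% of the type I and 6.67% of the gamma-type members. At an unadjusted p under 0.05 0 members of either class were lower, against 2066 of 14548 genes. The median difference was 0.26 for type I and -0.05 for the gamma type, against -0.03 for all genes. Above 0 lay 22 of 26 type I and 7 of 15 gamma-type members. The difference between the classes was not tested.

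Ifit2 read 6.16, 5.64, 5.83, 5.81 and 6.08 in DKO villi, against the control values given above of 4.83 to 5.22, which are low and under the filter level of 5.33. No arrays of the genotypes overlapped, and the difference was 0.87 ± 0.12 (adjusted p = 7.8e-05), the smallest p of any member in this comparison. Rsad2 differed by 0.99 ± 0.28 (adjusted p = 0.0231), Usp18 by 0.69 ± 0.20 (adjusted p = 0.0296), Oas3 by 0.57 ± 0.15 (adjusted p = 0.0151) and Dhx58 by 0.47 ± 0.12 (adjusted p = 0.0125). The other probe sets of Dhx58 gave -0.12 and 0.38, and its call was lost with the mean of its probe sets. The gamma-type member that rose was Cxcl10, a chemokine for T cells. It read 7.33, 6.76, 7.52, 8.23 and 7.82 in DKO villi, against 7.17, 6.70, 6.44, 6.83 and 6.97 in control villi, with DKO animal 2 inside the control range and the other 4 above it. The difference was 0.71 ± 0.22 (adjusted p = 0.0345). Gbp6 (-0.05 ± 0.16) and Irgm2 (-0.06 ± 0.24), which had fallen in Rb KO villi, did not pass against control, nor did Tap1 (-0.18 ± 0.13) or Ubd (-0.94 ± 0.48).

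Over the 3 genotypes in villi, DKO had the highest mean in 21 of 26 type I members, and Rb KO the lowest mean in 14 of 15 gamma-type members. Rb KO was the lowest in 14 type I members and control in 11. The shares of all genes with these orders are not given here. Many members were low on the same arrays, so these counts are not separate observations. Of the calls checked one by one in villi, those that passed in 20 of 20 alternative analyses were Ifit2, Oas1a and Ifit3 in DKO against control.

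The T cell markers moved with the Rb KO results. Of 24 markers of T cells and intraepithelial lymphocytes 21 were tested. In Rb KO against control villi 13 fell (61.9%) and 0 rose, with a median of -0.43, where 15.8% of all genes fell and 14.7% rose. Of other cell type lists, 0 of 16 macrophage and dendritic cell markers and 0 of 9 stromal and endothelial markers passed there. Of 8 B cell and plasma cell markers 1 fell and 0 rose, and of 9 epithelial markers 2 rose and 1 fell. Of 9 crypt markers 0 passed, with a median of 0.55. In DKO against control villi 1 of the 9 rose and 0 fell, with a median of 0.84. With the mean of the crypt markers as a further term, the Rb KO against control medians were 0.11 for type I and -0.21 for the gamma type. Those for DKO against control were 0.40 and 0.15. The part of crypt tissue in the villus differences was not tested. Against Rb KO villi 9 T cell markers rose (42.9%) and 0 fell in DKO villi, with a median of 0.42, where 5.90% of all genes rose and 1.92% fell. Between DKO and control villi, where 11.3% of all genes rose and 5.78% fell, 0 T cell markers rose and 0 fell, with a median of -0.02. Their summed level, as log2 of the sum, was 15.14 to 15.44 in DKO villi, 14.52 to 15.25 in Rb KO villi and 14.87 to 15.61 in control villi, and the T cell receptor component Cd3g, far from absent, read 10.27 to 10.76 in DKO, 9.61 to 10.24 in Rb KO and 10.07 to 10.83 in control villi. With the mean of these markers on each array as a further term, 0 members passed in Rb KO against control villi, where 705 genes still rose and 636 fell, and 0 passed in DKO against Rb KO villi, where 32 rose and 4 fell. Unadjusted p-values were under 0.05 in that fit, in either direction, for 9 type I and 2 gamma-type members in the Rb KO comparison. In that of DKO with Rb KO they were so for 3 and 1. The counts over all genes at that level are not given here for this fit. The type I median in that fit was 0.36 in Rb KO against control villi, above 0, and the gamma-type median was -0.07. In DKO against Rb KO villi these medians were 0.05 and 0.17. The standard error grew with this term, as its median over type I members was 0.23 with it and 0.15 without it in Rb KO against control villi. In DKO against control villi 8 type I members and 1 gamma-type member rose with it. In bulk tissue, fewer lymphocytes and less RNA per lymphocyte cannot be told apart, and the part of the lymphocytes in the members' differences was not tested beyond these values.

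Single arrays weighed on the Rb KO results in villi. Rb KO animals 4 and 5 were the 2 lowest of the 5 Rb KO villus arrays in 28 of 41 members (68.3%), against 15% of all genes, and in crypts in 2 of 41 (4.9%), against 13.8% of all genes. Rb KO animal 3 was the highest in 27 of 41 in villi. Low arrays were not confined to Rb KO villi. Rb KO animal 4 was the lowest of its villus group in 26 of 41 members (63.4%, against 19.7% of all genes). Control animal 4 was the lowest of its group in 26 of 41 (63.4%, against 28.2%), and DKO animal 4 in 18 of 41 (43.9%, against 16.4%). DKO animals 4 and 5 were the 2 lowest DKO villus arrays in 36.6% of members, against 16.1% of all genes. An analysis without Rb KO animals 4 and 5 was added after the values were seen. In it 4 of 41 members rose and 4 fell in Rb KO against control villi, where 1761 of 14548 genes rose and 1872 fell. In DKO against Rb KO villi 2 members rose and 1 fell, where 420 genes rose and 134 fell. The gamma-type median was then -0.25 for Rb KO against control and 0.30 for DKO against Rb KO, and the type I medians were 0.13 and 0.11. Among single arrays, leaving out Rb KO animal 5 or DKO animal 3 left 3 members higher in DKO against Rb KO villi, and leaving out Rb KO animal 4 or DKO animal 1 left 4. Leaving out Rb KO animal 2, DKO animal 2 or DKO animal 4 left 6, and leaving out DKO animal 5 left 7. Of the members lower in Rb KO against control villi, 6 were left without control animal 2, and 7 without control animal 5, Rb KO animal 2 or Rb KO animal 4. Of the 2 that rose there, 1 was left without control animal 2, 3, 4 or 5 or Rb KO animal 1, 2 or 3. In DKO against control villi 5 rose without DKO animal 3, and 4 without control animals 1 and 4. Counts over all genes for the fits without a single array are not given here, so those member counts have no background beside them. Of the 20 alternatives, the Rb KO calls of Ifit1 and Cxcl9 against control were kept in 10 and 7. In DKO against Rb KO villi those of Stat2, Xaf1, Irgm2, Oas3 and Gbp3 were kept in 11, 10, 10, 9 and 8.

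**Figure D3:**
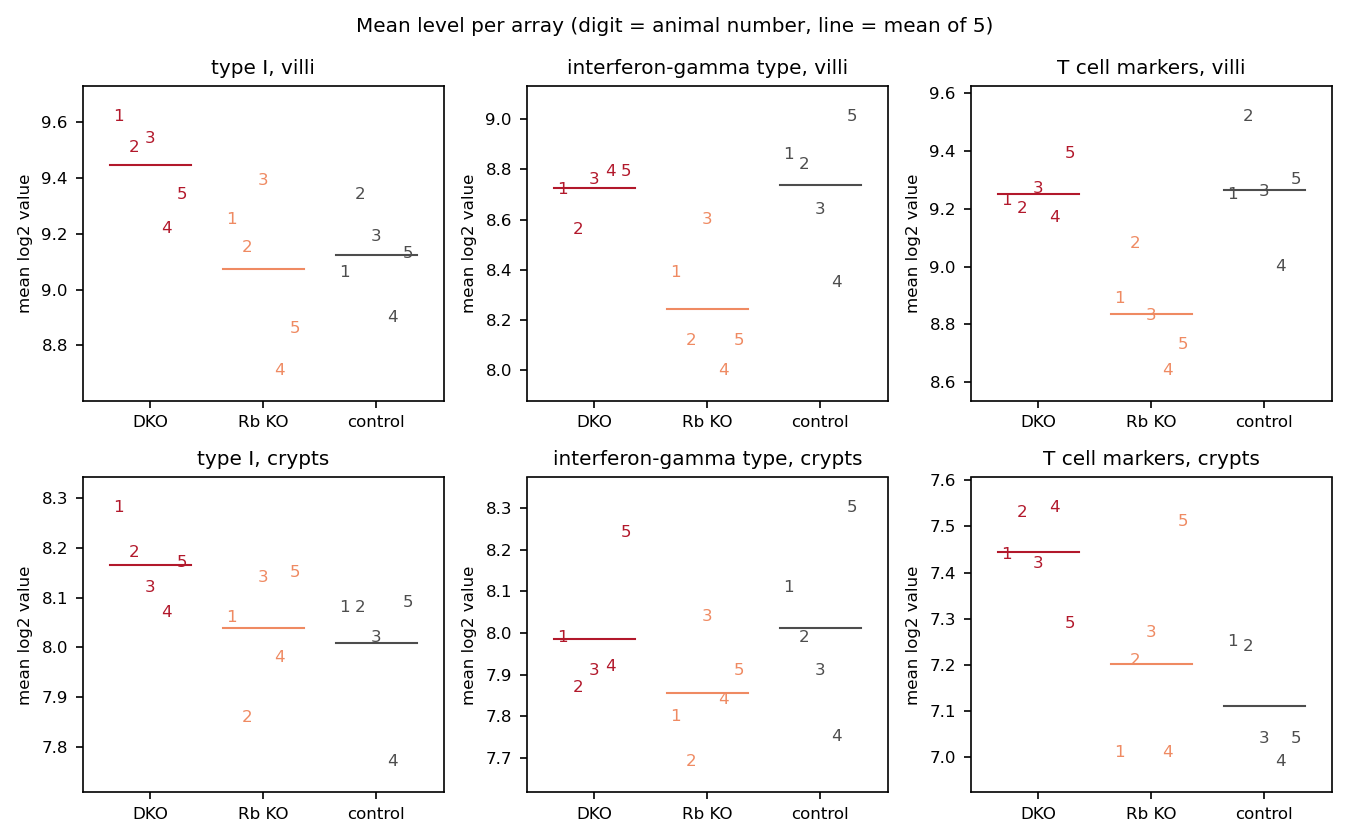
Mean log2 value per array of the 26 type I members (left), the 15 gamma-type members (middle) and 21 T cell markers (right), in villi (top) and crypts (bottom), DKO left, Rb KO in the middle and control right; a digit is the animal number and a line the mean of 5 arrays. In villi the type I mean was 9.22 to 9.62 in DKO, 8.71 to 9.39 in Rb KO and 8.90 to 9.34 in control, and Rb KO animals 4 and 5 stand low in it.

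Few members passed between Rb KO and control crypts. There 1 type I member rose and 1 fell, and of the gamma type 0 rose and 0 fell, where 7.33% of all genes rose and 2.97% fell. Without adjustment (p under 0.05), 3 gamma-type members were lower and 0 higher, where 1411 of 14548 genes were lower and 2083 higher. The median difference was 0.00 for type I and -0.21 for the gamma type, and 12 of 15 gamma-type members lay below 0. Trim25, the ubiquitin ligase that activates RIG-I, read 10.70, 10.76, 10.68, 10.61 and 10.58 in Rb KO crypts, against 11.02, 10.89, 10.82, 10.90 and 10.85 in control crypts. The groups did not overlap, and the difference was -0.23 ± 0.05 (adjusted p = 0.00920), a call lost when the means of its 3 probe sets were used. Ifih1 differed by 0.33 ± 0.10 (adjusted p = 0.0405), the direction it had in villi, but this call was lost in 7 other alternatives and in 8 of the 10 that left out a single array. In the same comparison 2 members fell without control animal 3 and 3 without control animal 4. Tap1 (-0.43 ± 0.13, adjusted p = 0.0559) and Psmb9, a subunit of the immunoproteasome (-0.26 ± 0.10, adjusted p = 0.118), had the smallest p of the gamma type and did not pass.

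DKO crypts had higher levels of several type I members than Rb KO crypts. Of 26 type I members 4 rose and 0 fell, and of the gamma type 0 rose and 0 fell, where 5.17% of all genes rose and 7.22% fell. The 4 are 15.4% of the type I members. Without adjustment, 2 type I members were lower at p under 0.05, and 1 gamma-type member was higher and 0 lower. Of 14548 genes, 1770 were higher and 2069 lower at that level. The median was 0.13 for type I and 0.14 for the gamma type, against 0.01 for all genes, with 21 of 26 and 14 of 15 members above 0. Oas1a read 10.25, 9.91, 9.98, 9.77 and 9.94 in DKO crypts, against 9.52, 9.57, 9.63, 9.54 and 9.59 in Rb KO crypts and 9.49, 9.72, 9.64, 9.43 and 9.67 in control crypts. Every DKO array was above every array of the other genotypes. It differed by 0.40 ± 0.08 from Rb KO (adjusted p = 0.00352), a call kept in 20 of 20 alternatives, and by 0.38 ± 0.08 from control (adjusted p = 0.00240).

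Stat2 read 7.72, 7.68, 7.70, 7.97 and 8.07 in DKO crypts, against 7.51, 7.16, 7.36, 7.17 and 7.51 in Rb KO crypts and 7.17, 7.55, 7.50, 7.16 and 7.26 in control crypts. Again no DKO array overlapped the other genotypes. The difference was 0.49 ± 0.10 from Rb KO (adjusted p = 0.00617) and 0.50 ± 0.10 from control (adjusted p = 0.00278). Xaf1 differed by 0.43 ± 0.10 from Rb KO (adjusted p = 0.0112) and by 0.42 ± 0.10 from control (adjusted p = 0.00696), and both calls were lost with the mean of its probe sets. Irf9, the DNA-binding subunit of the type I complex, differed by 0.17 ± 0.05 (adjusted p = 0.0452) and 0.16 ± 0.05 (adjusted p = 0.0447). Each of these Irf9 calls was kept in 7 of 20 alternatives, and leaving out a single array ended the first in 9 cases of 10 and the second in 7. Psmb9 (0.31 ± 0.10, adjusted p = 0.0505) and Cxcl9 (0.25 ± 0.12, adjusted p = 0.196) led the gamma type against Rb KO without passing.

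Against control crypts 5 type I members rose in DKO crypts and 0 fell, and of the gamma type 0 rose and 0 fell, where 11.0% of all genes rose and 9.19% fell. The 5 are 19.2% of the type I members. At an unadjusted p under 0.05 1 type I member was lower, and 1 gamma-type member was higher and 0 lower. Of 14548 genes, 2512 were higher and 2121 lower at that level. The 5 were Oas1a, Stat2, Xaf1 and Irf9, described above, and Dhx58, with 0.36 ± 0.10 (adjusted p = 0.0153). The other probe sets of Dhx58 gave 0.17 and 0.09. The median was 0.12 for type I and -0.03 for the gamma type. Cxcl9 (0.27 ± 0.12, adjusted p = 0.127) and Gbp7 (0.20 ± 0.10, adjusted p = 0.200) led the gamma type and did not pass. Oas1a and Dhx58 were the members past the threshold in DKO against control in both tissues, though the villus call of Dhx58 was lost with the mean of its probe sets.

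Some T cell markers rose in DKO crypts. Against control crypts 6 of 21 rose (28.6%) and 0 fell, with a median of 0.32, where 11.0% of all genes rose and 9.19% fell. Against Rb KO crypts 2 rose (9.52%) and 0 fell, where 5.17% of all genes rose and 7.22% fell. The summed level of the markers was 12.35 to 12.71 in DKO crypts, 11.99 to 12.72 in Rb KO crypts and 12.00 to 12.46 in control crypts. With the mean of the markers as a further term, 1 member, Oas1a, rose in DKO against Rb KO crypts, where 289 genes rose and 419 fell. Without this term 752 genes rose and 1050 fell there. In DKO against control crypts 0 members rose with it. There 682 genes rose and 449 fell, against 1605 and 1337 without it. The median standard error over type I members was 0.12 and 0.13 with it, and 0.09 in both comparisons without it. At an unadjusted p under 0.05, 5 type I and 2 gamma-type members passed with this term in DKO against control crypts. The count over all genes at that level is not given here. Beyond these values the part of the T cells was not tested.

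**Figure D4:**
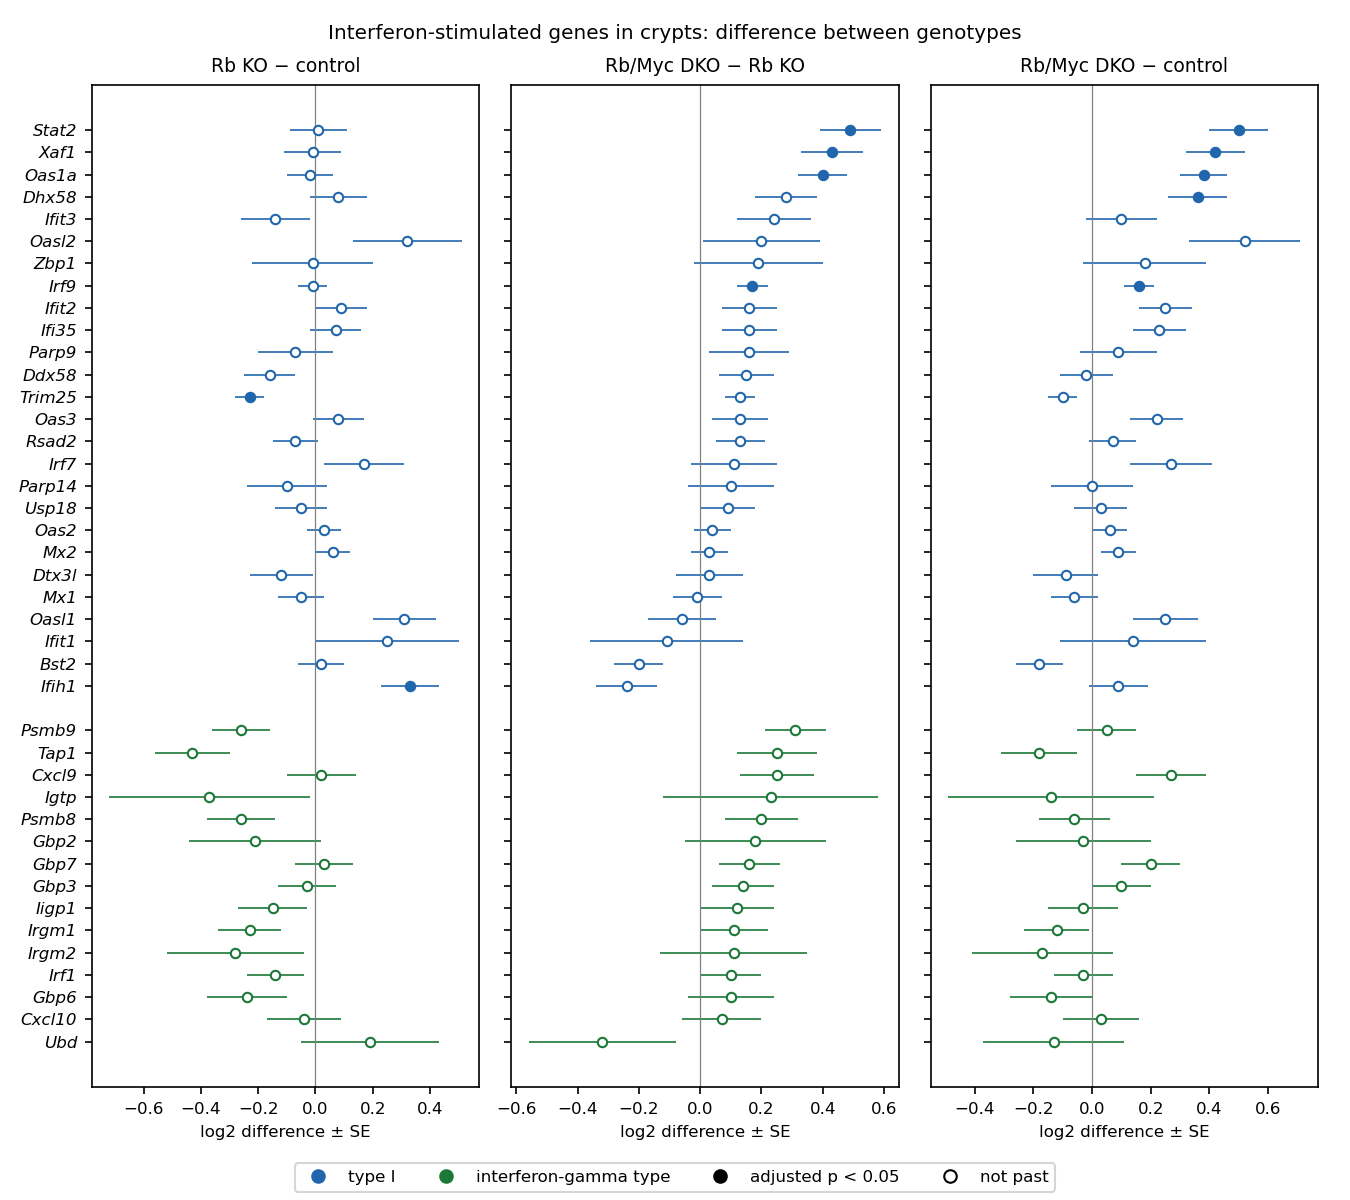
Log2 difference ± SE of the 41 members in crypts, one row a gene, drawn as for villi, with n = 5 arrays a group. Fewer points are filled than in villi, and the axes span less: Oas1a, Stat2 and Xaf1 stand right of 0 against both Rb KO and control.

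The effect of genotype was then compared between the tissues as an interaction over all 30 arrays. For Rb KO minus control it passed in 2 of 41 members (4.88%), a smaller share than the 13.7% of all genes. These were Ubd, with an interaction of -2.63 ± 0.56 (adjusted p = 0.00218), and Gbp6, with -0.66 ± 0.22 (adjusted p = 0.0441), negative values meaning a lower difference in villi than in crypts. In crypts Ubd read 5.71, 6.55, 5.51, 5.50 and 6.78 in Rb KO, against 6.43, 5.46, 5.59, 5.71 and 5.90 in control, and the groups overlapped. The control crypt mean of 5.82 is near the filter level of 5.33, which left little room for a fall like that in villi. For DKO minus Rb KO the interaction passed in 1 member, Usp18 (0.83 ± 0.23, adjusted p = 0.0431), against 3.40% of all genes. For DKO minus control it passed in 2 members, Ifit2 (0.63 ± 0.15, adjusted p = 0.0120) and Oas1a (0.61 ± 0.19, adjusted p = 0.0472), against 7.00% of all genes. Of 17 alternatives, the calls were kept in 17 for Ubd and 16 for Ifit2, but in 8 for Gbp6, 6 for Usp18 and 5 for Oas1a. Without single animals these counts ranged from 1 to 4, 0 to 2 and 1 to 2.

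Villus and crypt arrays that share a genotype and a number varied together and were taken as 1 animal. The interaction fit above treated those paired arrays as independent. With the animal as a block 5, 4 and 7 members passed in the 3 interactions. The share of all genes in the blocked fit is not given here, so these member counts have no background beside them. Those added were Stat2, Ifit2 and Ifit1 for Rb KO minus control, Ifit3, Gbp6 and Ubd for DKO minus Rb KO, and Bst2, Ifit3, Rsad2, Usp18 and Cxcl10 for DKO minus control.

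Members that passed in none of the 6 genotype comparisons numbered 17, with differences between -0.52 and 0.76. The 10 of type I were Oas2, Oasl1, Oasl2, Mx1, Mx2, Irf7, Ifi35, Parp14, Zbp1 and Bst2. Irf7, the master regulator of interferon-alpha production, differed by 0.42 ± 0.18 in DKO against control villi (adjusted p = 0.133), and Oasl2, of the oligoadenylate synthetase-like family, by 0.66 ± 0.22 (adjusted p = 0.0505). The 7 of the gamma type were Irf1, Gbp2, Gbp7, Iigp1, Irgm1, Psmb8 and Psmb9. Irf1, the transcription factor at the head of the gamma response, differed by -0.15 ± 0.11 in Rb KO against control villi (adjusted p = 0.343). Zbp1, a sensor of unusual nucleic acid forms, spanned 7.87 to 9.60 in Rb KO villi and 8.47 to 9.78 in control villi, the spread within a genotype being wider than the difference.

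The wider pathway was read from lists set beside the members. Of 18 tested genes of interferon receptors and JAK-STAT signalling, 6 fell (33.3%) and 2 rose (11.1%) in Rb KO against control villi, where 15.8% of all genes fell and 14.7% rose. Ifngr2, a chain of the interferon-gamma receptor, read 11.51, 11.68, 11.73, 11.42 and 11.62 in Rb KO villi, against 12.14, 12.51, 12.26, 12.33 and 12.24 in control villi, with no overlap. It differed by -0.70 ± 0.11 (adjusted p = 2.1e-04), and in DKO against Rb KO villi by 0.44 ± 0.11 (adjusted p = 0.0259). Ifnar2, the signalling chain of the type I receptor, differed by -0.51 ± 0.11 in Rb KO against control villi (adjusted p = 0.00216) and by 0.48 ± 0.11 in DKO against Rb KO villi (adjusted p = 0.0169). The kinase Jak1 differed by -0.33 ± 0.08 (adjusted p = 0.00537) and the phosphatase Ptpn11 by 0.37 ± 0.07 (adjusted p = 5.6e-04) in Rb KO against control villi. In DKO against Rb KO villi 2 of the 18 rose (11.1%, against 5.90% of all genes) and 0 fell. These were Ifngr2 and Ifnar2, 1 chain of each receptor. Of the partner chains, Ifnar1 averaged 8.79 in DKO, 8.76 in Rb KO and 8.91 in control villi, and Ifngr1 10.69, 10.51 and 10.28. In DKO against control villi 2 of the 18 rose (11.1%) and 1 fell (5.56%), against 11.3% and 5.78% of all genes. Ifngr1 rose by 0.41 ± 0.11 (adjusted p = 0.0173) and Ptpn11 by 0.23 ± 0.07 (adjusted p = 0.0281). Socs3 differed by -0.66 ± 0.21 (adjusted p = 0.0467). In crypts Ifnar2 differed by 0.30 ± 0.08 in DKO against Rb KO (adjusted p = 0.0212).

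Among 15 tested interferon genes and sensors, 2 rose and 2 fell in Rb KO against control villi (13.3% each way), under the shares of all genes, 14.7% and 15.8%. Cgas, the sensor of cytosolic DNA that leads to type I interferon, read 7.83, 8.06, 7.99, 8.10 and 8.34 in DKO villi and 8.54, 8.18, 8.40, 8.79 and 8.29 in Rb KO villi, against 6.75, 6.71, 6.80, 6.67 and 6.50 in control villi. All arrays without Rb1 were above all control arrays. Cgas differed by 1.76 ± 0.11 in Rb KO against control (adjusted p = 1.8e-08), by 1.38 ± 0.11 in DKO against control (adjusted p = 4.3e-07), and by -0.38 ± 0.11 in DKO against Rb KO (adjusted p = 0.0491). In crypts it differed by 0.67 ± 0.08 in Rb KO (adjusted p = 8.2e-05) and 0.56 ± 0.08 in DKO (adjusted p = 1.5e-04) against control. The RNA sensor Tlr3 differed by -0.41 ± 0.08 in Rb KO against control villi (adjusted p = 0.00134) and by 0.40 ± 0.08 in DKO against Rb KO villi (adjusted p = 0.0101). Of the interferons, Ifng read 3.87 to 4.47 over all 30 arrays and Ifna4 4.07 to 4.74, both under the filter, so their transcripts could not be compared. Ifnb1 averaged 5.50 in DKO, 5.64 in Rb KO and 5.55 in control villi, with no call.

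Of 16 tested class I presentation genes, 6 fell (37.5%) and 2 rose (12.5%) in Rb KO against control villi, where 15.8% of all genes fell and 14.7% rose. The heavy chain H2-K1 differed by -0.52 ± 0.16 (adjusted p = 0.0254), H2-D1 by -0.38 ± 0.10 (adjusted p = 0.0119) and Tap2, the partner of Tap1, by -0.44 ± 0.12 (adjusted p = 0.0102). H2-K1 also varied by animal. Control animal 1 read 13.74 in villi, inside the Rb KO range of 13.46 to 13.81, beside 13.99 to 14.53 in the other controls. DKO animals 4 and 5 read 13.84 and 13.68, beside 14.34 to 14.48 in the other DKO villi. Nlrc5, known as an activator of class I genes, went the other way: it read 6.19, 7.01, 6.68, 6.84 and 7.67 in DKO villi and 7.49, 6.98, 7.20, 6.67 and 6.58 in Rb KO villi, against 6.18, 5.69, 5.67, 5.74 and 6.20 in control villi. Every Rb KO array lay above every control array, and the difference was 1.09 ± 0.23 (adjusted p = 0.00205). DKO exceeded control by 0.98 ± 0.23 (adjusted p = 0.00817). Of the 16, 0 rose and 0 fell in DKO against Rb KO villi.

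A further list held 60 other interferon-stimulated genes, 42 of them tested, which include Nlrc5 and the T cell marker Ccl5 named in other lists. In Rb KO against control villi 9 fell (21.4%) and 5 rose (11.9%), against 15.8% and 14.7% of all genes. In DKO against Rb KO villi 11 rose (26.2%) and 3 fell (7.14%), against 5.90% and 1.92% of all genes. In DKO against control villi 5 rose (11.9%) and 1 fell (2.38%), against 11.3% and 5.78% of all genes, so these counts stood near or under the background. Between crypts 10 rose (23.8%) and 1 fell (2.38%) in DKO against control, where 11.0% and 9.19% of all genes did. In DKO against Rb KO crypts 5 rose (11.9%) and 4 fell (9.52%), against 5.17% and 7.22%. In Rb KO against control crypts 4 rose (9.52%) and 2 fell (4.76%), against 7.33% and 2.97%. Ifi27, a mitochondrial protein of the type I response, differed by 0.52 ± 0.08 from Rb KO (adjusted p = 0.00263) and 0.55 ± 0.08 from control (adjusted p = 2.4e-04) in DKO villi. In DKO crypts it differed by 0.60 ± 0.11 from Rb KO (adjusted p = 0.00169) and 0.70 ± 0.11 from control (adjusted p = 2.1e-04). The nuclear body gene Pml rose in DKO against control villi by 0.63 ± 0.16 (adjusted p = 0.0149) and, between crypts, by 0.43 ± 0.08 (adjusted p = 0.00134). Ifitm3, a membrane protein that blocks virus entry, went the other way in crypts. It read 10.56, 10.15, 10.69, 10.90 and 11.02 in DKO crypts and 11.23, 10.89, 11.23, 11.18 and 11.19 in Rb KO crypts, against 11.87, 11.48, 11.84, 11.52 and 11.85 in control crypts. The 3 genotypes overlapped only between DKO and Rb KO. Its difference was -1.05 ± 0.14 in DKO against control (adjusted p = 6.0e-05), -0.57 ± 0.14 in Rb KO against control (adjusted p = 0.0145) and -0.48 ± 0.14 in DKO against Rb KO (adjusted p = 0.0311). The 3 that fell in DKO against Rb KO villi were Trim30a, Trim30d and Trim34a. Trim30d read 7.90 to 8.36 in DKO villi, against 11.32 to 11.60 in Rb KO villi, with control animal 1 at 11.54 beside 7.53 to 9.75 in the other control villi, so its differences follow single animals as well as genotype.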

How the data were processed

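Deposited log2 values of 45101 probe sets on 30 arrays were used, made by the authors from biotin-labelled total RNA. The normalization is not given in the sources used here. Array medians were 6.28 to 6.34 in villi and 6.67 to 6.73 in crypts, and pairs of arrays of a tissue shared 285 to 596 identical values, pairs of both tissues at most 1, so each tissue was fitted apart. Of the probe sets, 34958 have 1 symbol, 932 several and 9211 none, and only the first were used. Each gene was represented by its probe set of highest mean, and genes whose mean exceeded 5.33, the percentile 30 of all probe set means, were tested with limma 3.58.1 in R 4.3.3 (lmFit, eBayes, 3 genotypes a fit, Benjamini-Hochberg), which was tested on simulated data.

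Villi and crypts of a genotype and number deviated together in 15 of 15 cases (correlations 0.246 to 0.560), so they were taken as an animal. Numbers pair nothing between genotypes in the labels.

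In each comparison and class, up to 6 members of smallest p among those past the threshold were named, or the 2 of smallest p where none passed; up to 4 were named from each other list. A few others, Dtx3l and Ifit1 among them, and members past no threshold were named after their values were seen. The members, lists and tests were chosen with earlier results of these data known. Alternatives were another joining of probe sets, no filter, quantile normalization, other limma settings, blocks, covariates and arrays left out. Promoters came from RefSeq, and figures were drawn with matplotlib 3.10.9.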

Additional observations from a re-analysis of the deposited data

Results flagged for a closer look

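In 10 of 150 groups of 5 arrays, over the 25 members named by the rule for smallest p, an array stood apart from the other 4 of its group, where chance sets apart about 1 in 20. In villi these were DKO animal 1 for Ddx58, at 9.74 beside 9.67 to 9.69, and control animal 1 for Ifit3, at 7.38 beside 7.57 to 7.61. In DKO crypts they were animal 5 for Gbp6, at 6.70 beside 6.03 to 6.14, and animal 2 for Cxcl9, at 5.37 beside 5.88 to 6.01. In Rb KO crypts animal 2 stood apart for Parp9, at 9.81 beside 10.07 to 10.17, and for Cxcl9, at 5.35 beside 5.62 to 5.67. In control crypts animal 4 stood apart for Parp9, at 9.62 beside 10.16 to 10.36, for Ifit1, at 4.66 beside 5.73 to 6.13, and for Dhx58, at 5.84 beside 6.26 to 6.42, and animal 2 for Rsad2, at 7.00 beside 7.11 to 7.13. Control crypt animal 4 was the lowest of its group in 26 of 41 members, against 24.8% of all genes.

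The effect of genotype differed between villi and crypts in 5 cases, by the interaction test without the animal as a block. For Rb KO minus control the value in villi minus that in crypts was -2.63 for Ubd and -0.66 for Gbp6. For DKO minus Rb KO it was 0.83 for Usp18, and for DKO minus control 0.63 for Ifit2 and 0.61 for Oas1a. These are 4.88%, 2.44% and 4.88% of the 41 members, smaller shares than the 13.7%, 3.40% and 7.00% of all genes. The calls were kept in 17 of 17 alternatives for Ubd and 16 for Ifit2, but in 8 for Gbp6, 6 for Usp18 and 5 for Oas1a, most losses coming from leaving out 1 animal. Ubd averaged 5.82 in control crypts, near the filter level of 5.33, which left little room for a fall there like that in villi.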

How the results depend on the processing

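Over the members named by the rule for smallest p, each in the comparison that named it, 751 of 985 alternative values kept direction and side of the threshold, 216 fell short of it, 18 passed it anew and 0 turned round. The counts of members past the threshold moved more, and those over all genes moved too. In Rb KO against control villi 2140 genes rose and 2293 fell. With the T cell markers these were 705 and 636. Without control animals 1 and 4 they were 2479 and 2497, and without Rb KO animals 4 and 5, 1761 and 1872. In DKO against Rb KO villi 859 rose, and 626 with quantile normalization. There 32 rose with the T cell markers, 1438 with the crypt markers and 420 without Rb KO animals 4 and 5. The counts of members follow. In Rb KO against control villi (2 higher, 11 lower) the higher count was 1 with Xist, 0 with the T cell markers, 1 without control animals 1 and 4 and 4 without Rb KO animals 4 and 5, and the lower count was 0 with the T cell markers and 4 without Rb KO animals 4 and 5. In DKO against Rb KO villi (12 higher, 0 lower) the higher count was 6 with quantile normalization, 0 with the T cell markers, 22 with the crypt markers and 2 without Rb KO animals 4 and 5, and the lower count was 1 with the replicate block and 1 without Rb KO animals 4 and 5. In DKO against control villi (8 higher) the higher count was 13 with the crypt markers and 4 without control animals 1 and 4. Over all genes 1643 rose there, 1421 with the crypt markers and 1791 without control animals 1 and 4. In Rb KO against control crypts (1 higher, 1 lower) the higher count was 0 with quantile normalization, the replicate block, Xist, T cell or crypt markers, or either pair of animals left out, and the lower count was 0 with the mean of all probe sets, 2 with quantile normalization, 4 with the crypt markers, 3 without control animals 1 and 4 and 0 without Rb KO animals 4 and 5. Over all genes 1066 rose and 432 fell there. They were 909 and 648 with quantile normalization, 937 and 335 with the T cell and 887 and 340 with the crypt markers. Without control animals 1 and 4 they were 1004 and 404, and without Rb KO animals 4 and 5, 622 and 183. In DKO against Rb KO crypts (4 higher) the higher count was 1 with the T cell and 8 with the crypt markers. In DKO against control crypts (5 higher) it was 8 with the replicate block and 0 with the T cell markers. Over all genes 752 rose in the first (289 with the T cell and 623 with the crypt markers). In the second 1605 rose (682 with the T cell markers). The interaction for Rb KO minus control (2) gave 1 with no filter, 5 with the replicate block and 4 without Rb KO animals 4 and 5. That for DKO minus Rb KO (1) gave 3 with the mean of all probe sets, 0 with quantile normalization, 4 with the replicate block, 3 without control animals 1 and 4 and 0 without Rb KO animals 4 and 5. That for DKO minus control (2) gave 1 with no filter, 1 with quantile normalization, 7 with the replicate block, 1 without control animals 1 and 4 and 4 without Rb KO animals 4 and 5.

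Leaving out 1 array at a time gave 1 to 3 higher and 6 to 10 lower in Rb KO against control villi, 3 to 13 and 0 to 0 in DKO against Rb KO villi, 5 to 8 and 0 to 0 in DKO against control villi, 0 to 1 and 1 to 3 in Rb KO against control crypts, 3 to 5 and 0 to 1 in DKO against Rb KO crypts, 4 to 7 and 0 to 1 in DKO against control crypts, and 1 to 4, 0 to 2 and 1 to 2 in the interactions. Fewer arrays widen the error, and beyond that the cause was not tested. Counts over all genes are not given here for these fits or for the alternatives of the interactions. They are also not given for the fits with the replicate block, Xist, no filter or the mean of all probe sets. Those member counts have no background beside them. Within a tissue the replicate block joins genotypes by number alone, and their same-numbered arrays correlated between -0.274 and 0.419. The pairs of animals left out were chosen after the data were seen.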
